A study of Mus musculus with 4 samples.

Results

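Kidney water channels and the vasopressin receptor that regulates them were followed in kidneys of Th3 mice, a model of beta-thalassemia, and of control mice. The 10 genes were the aquaporins Aqp1, Aqp2, Aqp3, Aqp4, Aqp5, Aqp6, Aqp8 and Aqp11, the vasopressin V2 receptor Avpr2 and the urea transporter gene Slc14a2. They were chosen by gene name: every non-control probe that the array files assign to 1 of these names was taken, which gave 14 probes. The rule used no measured value, but earlier results of these data were known when the members were chosen. All 14 probes were well above background in both channels on all 4 arrays, so all 10 genes were among the 17626 genes tested. The labels give the Th3 genotype as a deletion of beta-major and beta-minor, the beta-globin genes of adult red cells, and call the other group control. Neither the age, the sex nor the background strain of the mice is stated, nor whether the deletion was on 1 chromosome of the pair or on both. 4 Th3 and 4 control samples of kidney RNA were hybridised in pairs, not stated to come from separate mice, 1 Th3 and 1 control sample on each of 4 two-colour arrays, with Th3 in Cy5 on arrays 1 and 2 and in Cy3 on arrays 3 and 4.

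Aquaporins are membrane channels for water, and some of them also pass glycerol or other small solutes. Water leaves the proximal tubule and the thin descending limb mostly through Aqp1, without hormonal control. In the collecting duct the pituitary hormone vasopressin binds the V2 receptor on principal cells, which raises cyclic AMP and moves Aqp2 from vesicles to the luminal membrane. Water then leaves the principal cell on its blood side through Aqp3 and Aqp4. Vasopressin also acts on the urea channels encoded by Slc14a2, which feed urea into the inner medulla and so help to concentrate urine.

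The sequences before the start of 3 of these genes are shown because Aqp3 and Aqp6 rose in Th3 kidney, while Aqp2, the classic vasopressin target, did not pass the test. Each is the 250 bases ahead of the start that RefSeq gives in assembly GRCm38.p6, printed 5′ to 3′ on the gene's own strand. Capitals mark matches, on either strand, to 6 short motifs: the CRE half-site TGACG, the hypoxia-inducible factor (HIF) site written ACGTG, the NFAT5 core written TGGAAA, the GATA site written AGATAA, the Sp1 site written GGGCGG and the TATA box written TATAAA.
Aqp3 at chr4:41098184-41098433, minus strand: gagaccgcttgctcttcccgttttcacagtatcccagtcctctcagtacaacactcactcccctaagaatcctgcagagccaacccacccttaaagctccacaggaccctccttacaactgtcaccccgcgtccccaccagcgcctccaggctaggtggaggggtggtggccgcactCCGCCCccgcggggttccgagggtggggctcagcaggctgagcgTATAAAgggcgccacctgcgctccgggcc
Aqp6 at chr15:99600950-99601199, plus strand: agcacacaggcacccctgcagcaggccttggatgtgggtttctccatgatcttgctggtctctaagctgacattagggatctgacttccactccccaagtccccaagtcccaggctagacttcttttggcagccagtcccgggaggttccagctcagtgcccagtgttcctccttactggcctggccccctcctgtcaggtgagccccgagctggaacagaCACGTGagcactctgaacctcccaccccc
Aqp2 at chr15:99578806-99579055, plus strand: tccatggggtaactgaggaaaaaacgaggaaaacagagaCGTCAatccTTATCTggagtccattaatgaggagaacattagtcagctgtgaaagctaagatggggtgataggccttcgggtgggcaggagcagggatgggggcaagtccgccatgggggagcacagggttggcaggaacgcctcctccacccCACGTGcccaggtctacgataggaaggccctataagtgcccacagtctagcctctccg
The Aqp3 window held an Sp1 site on the opposite strand, 73 bases before the start, and a TATA box 29 bases before it. In the Aqp6 window the HIF letters matched on both strands in 1 overlapping palindrome, 29 and 28 bases before the start. The start that the table gives for Aqp6 lies 2732 bases inside the longest span of the gene, so this window may not be the only place where its transcripts begin. The Aqp2 window held a CRE half-site 211 bases before the start and a GATA site 202 bases before it, both on the opposite strand, and the same HIF palindrome 58 and 57 bases before the start. No CRE half-site was found in the Aqp3 or the Aqp6 window, and the NFAT5 core was in none of the 3. Of 32851 such windows in the table, 17.8% held the CRE half-site, 16.6% the HIF letters, 18.6% the NFAT5 core, 9.99% the GATA site, 32.7% the Sp1 site and 12.4% the TATA box. A match describes the letters of these windows and not a bound site. Windows were matched for 8 of the 10 genes, and those of Aqp5 and Aqp8, which did not pass the test, also held the HIF letters.

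In Th3 kidney, Aqp3 rose 1.61-fold and Aqp6 rose 1.55-fold, and the other 8 genes did not pass the test. A gene was called higher or lower where its adjusted p in limma's moderated test across all genes was below 0.05. Thus 2 of 10 genes were higher (20%) and 0 were lower (3 and 2 at an unadjusted p below 0.05 in limma), beside 10.9% of all genes called higher, 10.6% called lower and 21.5% called in either direction. Of the 14 probes 2 were higher and 0 lower, beside 9.27% and 8.93% of all 26430 probes. The median log2 ratio of Th3 over control was 0.0094 for the 10 genes and 0.0013 for all genes. The full count over all genes was 1927 higher and 1866 lower, and with median centring in place of loess it was 1938 higher and 1144 lower. Aqp3 and Aqp6 stood at rank 150 and rank 195 of all genes by increase, so 0.851% of genes had a ratio at or above that of Aqp3 and 1.11% one at or above that of Aqp6. Every Th3 signal lay above every control signal for these same 2 genes, which 11.4% of all genes also showed, and for none of the 10 did every Th3 signal lie below, which 9.62% of all genes showed. A term for the difference between arrays 1 and 2 and arrays 3 and 4, in which the dye and the kidneys used go together, passed for 0 of the 10 genes (4 at an unadjusted p below 0.05) and for 0.993% of all genes. In whole kidney RNA, more cells of a type and more RNA per cell cannot be told apart.

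**Figure D1:**
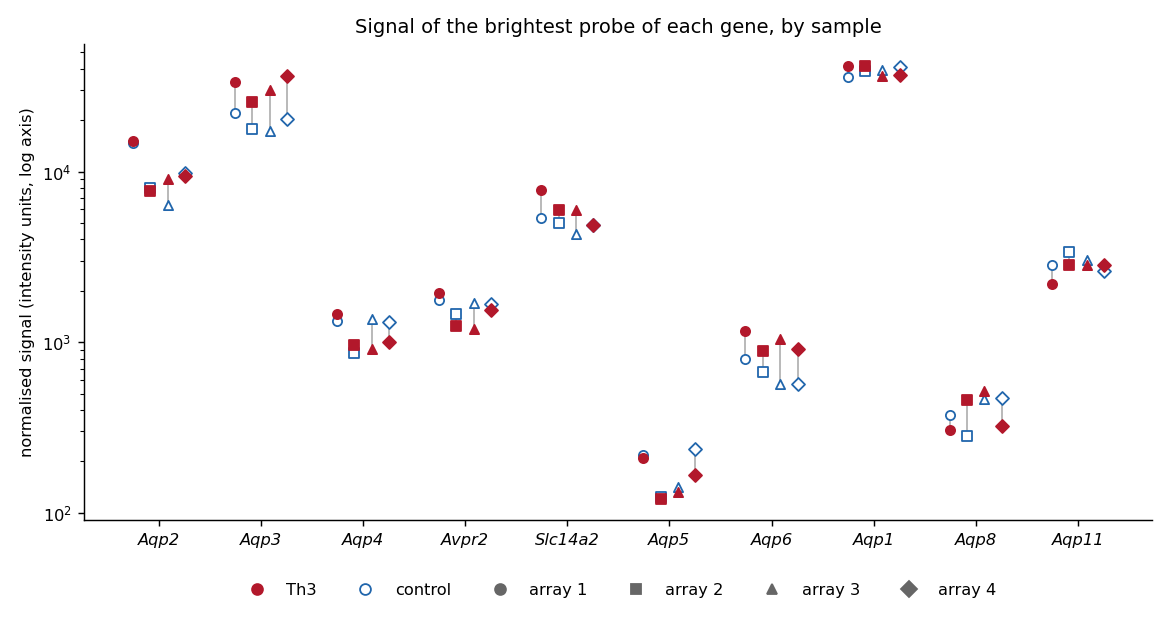
Normalised signal (linear intensity units on a log axis) of the brightest probe of each gene in 4 Th3 samples (filled red) and 4 control samples (open blue), with the marker shape giving the array and a grey line joining both samples of an array. For Aqp3 and Aqp6 all 4 filled points lie above all 4 open ones, and for the other 8 genes they overlap; heights of different genes come from different probes and cannot be compared.

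The first water channel of the principal cell, Aqp2 of the luminal membrane, showed no called difference. Aqp2 gave signals of 15103, 7704, 9038 and 9427 in the Th3 samples of arrays 1 to 4 and of 14740.1, 7977, 6352 and 9873 in their controls. These signals are normalised intensities in linear units, loess-corrected within arrays and scaled between them. The groups overlapped, and Th3 was the higher sample by a clear margin only on array 3. Its log2 ratios were 0.035, -0.05, 0.51 and -0.067, with a mean of 0.11 ± 0.27 (SD, n = 4) and an adjusted p of 0.468. Without array 3 the mean turned to -0.04 (adjusted p = 0.705), and without array 4 it reached 0.25 and passed (adjusted p = 0.0457). The probe lies at 99410181 to 99411157 on chromosome 15 of mouse build mm8, the build of the array annotation, and its 60 bases span 977 bases of the genome.

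Aqp3, the water and glycerol channel of the basolateral membrane of principal cells, was higher in every Th3 sample than in any control. Aqp3 gave 33608.5, 25449.7, 30065 and 36117 in the Th3 samples of arrays 1 to 4 and 21939, 17873, 17408 and 20248 in their controls. The lowest Th3 signal, on array 2, still exceeded the highest control signal, on array 1. By array, the log2 ratios were 0.62, 0.51, 0.79 and 0.83, with a mean of 0.69 ± 0.15 (SD, n = 4) and an adjusted p of 0.00131. Arrays 1 and 2 had a mean of 0.56, and arrays 3 and 4 one of 0.81, so the increase was present in both dye orientations. In 15 fits with other settings, each with a test, the log2 ratio stayed between 0.66 and 0.77 and passed every time (adjusted p from 1.03e-05 to 0.0101). The lowest adjusted p came from the fit without array 2, so from fewer data, and is no stronger evidence than that of all 4 arrays. The scanner read this bright spot from its scan at low detector gain on 4 arrays for Th3 and on 2 for the control, and the part of this in the ratio was not tested. The authors' deposited table gives a fold of 1.57 with an adjusted p of 0.0072 for this probe. It lies at 41281600 to 41281659 on the minus strand of chromosome 4 (mm8).

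Aqp4, the other basolateral water channel of principal cells and the main one of brain astrocytes, split by pair of arrays in its brightest probe. Its brightest probe gave 1469, 965, 906 and 1004 in Th3 samples and 1327, 866, 1368 and 1321 in controls. Th3 was slightly higher on arrays 1 and 2 and lower on arrays 3 and 4, and the groups overlapped. On arrays 1 to 4 the log2 ratios were 0.15, 0.16, -0.59 and -0.40, with a mean of -0.17 ± 0.38 (n = 4, adjusted p = 0.0808), and the term for the pairs of arrays had an adjusted p of 0.0655 in the same limma fit. The other probes of Aqp4 had means of -0.14 ± 0.18 and -0.11 ± 0.075, and neither passed. From array 1 to array 4 the former had log2 ratios of -0.033, 0.012, -0.15 and -0.40. The latter had -0.025, -0.065, -0.18 and -0.16, so it was negative on every array. All 3 probes lie close together on chromosome 18, from 15536006 to 15536701 (mm8), so they read 1 stretch of RNA and are no replicates of it.

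The V2 receptor itself, Avpr2, gave 1931, 1236, 1198 and 1537 in Th3 samples and 1769, 1457, 1693 and 1664 in controls. Th3 was lower on 3 of 4 arrays and higher on array 1, with overlapping groups. Its log2 ratios were 0.13, -0.24, -0.50 and -0.11, with a mean of -0.18 ± 0.26 (n = 4) that did not pass (adjusted p = 0.197). Its probe lies at 70146949 to 70147008 on chromosome X (mm8). Among the principal-cell members, then, 1 channel rose while the hormone-moved channel, the third channel and the receptor did not pass.

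The urea channels of the thin descending limb and the inner medullary collecting duct come from 1 gene, Slc14a2, which makes several transcripts. Its brightest probe gave 7809, 5959, 5977 and 4865 in Th3 samples and 5355, 4980.25, 4309.94 and 4873 in controls. Th3 was higher on arrays 1, 2 and 3 and level with the control on array 4, and the groups overlapped. By array, the log2 ratios were 0.54, 0.26, 0.47 and -0.0026, with a mean of 0.32 ± 0.25 (n = 4, adjusted p = 0.0528), just short of the threshold. Over the 15 other settings it passed in 7, and its adjusted p ran from 0.0116 to 0.150. Leaving out array 2 or array 4 it passed (log2 0.39 and 0.44, adjusted p = 0.0116 and 0.0258), and leaving out array 1 or array 3 it did not (log2 0.25 and 0.20, adjusted p = 0.122 and 0.150).

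The 3 probes of Slc14a2 read different parts of the gene and did not give the same ratio. The brightest probe is the one nearest the 3′ end, at 78308248 to 78308307 on chromosome 18 (mm8, minus strand). A probe at 78345353 to 78345412 gave 1157, 523, 471 and 836 in Th3 samples and 664, 429, 476 and 866 in controls. Its log2 ratios of 0.80, 0.29, -0.017 and -0.05 were high on arrays 1 and 2 only, with a mean of 0.26 ± 0.39. The third probe, at 78354311 to 78357812, was dim, with Th3 signals of 195, 140.465, 151 and 171 and control signals of 183, 146, 147 and 184. Its mean log2 ratio was -0.0097 ± 0.086, and neither of these probes passed. With the mean of the 3 probes the log2 ratio of the gene was 0.19 (adjusted p = 0.113). The array annotation names a different RefSeq transcript for the brightest probe than for the other probes, which share theirs. Which further transcripts each probe reads was not worked out here.

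Aqp6, a channel of intracellular vesicles in acid-secreting intercalated cells that passes anions, was the second gene to rise. Aqp6 gave 1162, 886, 1039 and 918 in the Th3 samples of arrays 1 to 4 and 794, 666, 572 and 567 in their controls. The lowest Th3 signal, on array 2, exceeded the highest control signal, on array 1, as for Aqp3. On arrays 1 to 4 the log2 ratios were 0.55, 0.41, 0.86 and 0.69, with a mean of 0.63 ± 0.19 (SD, n = 4) and an adjusted p of 0.00197. Arrays 1 and 2 had a mean of 0.48, and arrays 3 and 4 one of 0.78. Over the 15 other settings the log2 ratio stayed between 0.59 and 0.70 and passed every time (adjusted p from 2.89e-05 to 0.0167). As for Aqp3, the lowest adjusted p came from the fit without array 2, so from fewer data. The authors' deposited table gives this probe a fold of 1.597 with an adjusted p of 0.00733. The probe lies at 99432976 to 99433035 on chromosome 15 (mm8).

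Aqp5, best known from salivary gland and lung and present in a subset of intercalated cells, did not pass. Aqp5 gave 210.223, 121, 132 and 167 in Th3 samples and 217, 124, 142 and 237 in controls, and the groups overlapped. Th3 was the lower sample on all 4 arrays, by little on arrays 1, 2 and 3 and by more on array 4. Its log2 ratios were -0.046, -0.034, -0.11 and -0.51, with a mean of -0.17 ± 0.22 (n = 4, adjusted p = 0.152). Without array 3 it passed as lower (log2 -0.27, adjusted p = 0.0372), and without array 4 the mean was -0.073. Its probe lies at 99422734 to 99422792 on chromosome 15 (mm8).

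Of the proximal tubule members, Aqp1, the constitutive water channel of proximal tubule and thin descending limb, had one of the smallest differences. Aqp1 gave 41795, 41489.9, 36400.5 and 36647 in Th3 samples and 35962, 38757, 39459 and 40798 in controls. Th3 was the higher sample on arrays 1 and 2 and the lower one on arrays 3 and 4. By array, the log2 ratios were 0.22, 0.098, -0.12 and -0.15, with a mean of 0.011 ± 0.18 (n = 4, adjusted p = 0.908). Both channels came from the scan at low detector gain on all 4 arrays, although no spot was saturated. The probe lies at 55278064 to 55278123 on chromosome 6 (mm8).

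Aqp11, an aquaporin of the endoplasmic reticulum of proximal tubule cells, gave 2181, 2834, 2850.24 and 2836 in Th3 samples and 2822, 3379, 3029.56 and 2597 in controls. Th3 was lower on 3 of 4 arrays and higher on array 4. On arrays 1 to 4 the log2 ratios were -0.37, -0.25, -0.088 and 0.13, with a mean of -0.15 ± 0.22 (n = 4, adjusted p = 0.137). Aqp8, a channel for water and ammonia found at low level in kidney, gave 306, 459.584, 516 and 323 in Th3 samples and 373, 281, 464 and 471 in controls. Its ratios had no common direction, with -0.29, 0.71, 0.15 and -0.54 on arrays 1 to 4, a mean of 0.0078 ± 0.55 and an adjusted p of 0.981. The SD of Aqp8 was the widest of the 10 genes, beside a median SD of 0.14 over all genes. The probes of Aqp11 and Aqp8 both lie on chromosome 7 (mm8), at 97601671 to 97601730 on the minus strand and at 123259070 to 123259129 on the plus strand.

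**Figure D2:**
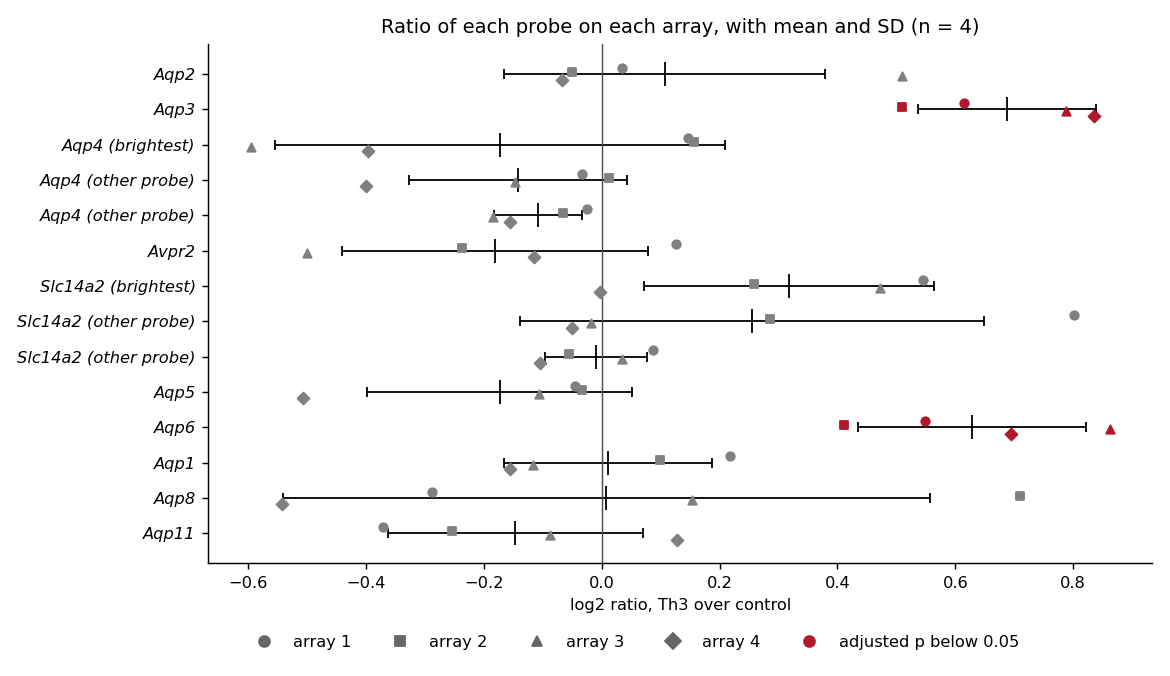
Log2 ratio of Th3 over control (x axis) of all 14 probes on each array (marker shapes), with the mean as a vertical tick and the SD over 4 arrays as a bar. The probes of Aqp3 and Aqp6, in red, lie to the right of 0 on every array, between 0.41 and 0.86, and no other probe passed the test.

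Aqp3 was set against each other member within arrays, as its log2 ratio minus theirs. Its increase was known when it was taken as the reference, so these differences only describe the ratios already given. The mean difference was 0.058 ± 0.093 (SD, n = 4) against Aqp6 and 0.37 ± 0.33 against Slc14a2. For the other 7 genes it lay between 0.58 (Aqp2) and 0.87 (Avpr2), and it was least even over arrays for Aqp8 (0.68 ± 0.66) and most even for Aqp11 (0.83 ± 0.12). Aqp3 had the higher ratio on 4 of 4 arrays against 7 of the 9 genes and on 3 of 4 against Aqp6 and Aqp8. With 4 arrays an exact two-sided sign-flip permutation test cannot reach 0.05, so no difference was tested.

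The genes that rose have neighbours of the same family that did not. In GRCm38.p6, Aqp2, Aqp5 and Aqp6 lie in a row on chromosome 15, with 6482 bases between Aqp2 and Aqp5 and 3638 bases between Aqp5 and Aqp6. Along this row the log2 ratios were 0.11, -0.17 and 0.63, and Aqp6 alone passed. On chromosome 4, Aqp3 lies 44486 bases from Aqp7, the glycerol channel of the straight proximal tubule and of fat cells. Aqp7 was called lower while Aqp3 was called higher. Aqp7 gave 676, 758, 703 and 771 in the Th3 samples of arrays 1 to 4 and 913, 895, 965 and 949 in their controls, with no overlap. Its log2 ratios were -0.43, -0.24, -0.46 and -0.30, with a mean of -0.36 ± 0.10 (n = 4, adjusted p = 0.0108), and it passed in all 15 other settings. The urea channel of red cells and descending vasa recta, Slc14a1, named after its value was seen, had a log2 ratio of 0.18 ± 0.15 that did not pass (adjusted p = 0.0872). Mip, Aqp9 and Aqp12 have probes on the array, but their signal was too low for the test.

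The 5 genes whose ratios over the 4 arrays were nearest to those of Aqp3, by root mean square difference among 14738 genes, were Akr1c19 (0.05), Col5a1 (0.06), Rasgef1a (0.075), Arrdc3 (0.097) and Aqp6 (0.099). Akr1c19 is an aldo-keto reductase and Col5a1 a chain of fibrillar collagen V. Their log2 ratios were 0.66 for Akr1c19, 0.67 for Col5a1, 0.67 for Rasgef1a and 0.60 for Arrdc3. With 4 arrays such a likeness describes these ratios and no more.

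The list of vasopressin signalling holds the other vasopressin receptors, the cyclic AMP pathway and a few regulators and response genes, and here 6 of 32 tested genes rose, 3 fell and 23 did not pass. That is 18.8% higher and 9.38% lower, beside 10.9% and 10.6% of all genes, with a median log2 ratio of 0.014. The largest increases in this list were those of Dusp1 and Avpr1a, and the largest decrease was that of Rcan1. Avpr1a, the V1a vasopressin receptor, which signals through calcium and sits on intercalated cells and vessels, gave 939, 1146, 1100.2 and 849 in Th3 samples and 699, 516, 601 and 614 in controls. Every Th3 signal of Avpr1a lay above every control signal, with log2 ratios of 0.43, 1.15, 0.87 and 0.47 and a mean of 0.73 ± 0.35 (n = 4, adjusted p = 0.011). So the V1a receptor was called higher while the V2 receptor was not called, and it passed in all 15 other settings, most narrowly without array 3 (adjusted p = 0.0496). Whether the 2 receptors differ was not tested.

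The cyclic nucleotide phosphodiesterase Pde1a, a calcium-activated one, rose by 0.42 ± 0.15 on the log2 scale (adjusted p = 0.00441), with signals from 4462 to 5072 in Th3 samples and from 3253 to 4241 in controls. With the mean of its probes in place of the brightest, Pde1a did not pass (log2 0.12, adjusted p = 0.179). Pde4c, a cyclic AMP-specific phosphodiesterase, had log2 ratios of -0.062, 0.17, 0.56 and 0.62 with a mean of 0.32 ± 0.32 (adjusted p = 0.0145), and its groups overlapped. Dusp1, a phosphatase of MAP kinases that cyclic AMP and stress induce, had log2 ratios of 0.53, 0.38, 0.56 and 1.55, so that array 4 stood far above the others, with a mean of 0.76 ± 0.54 (adjusted p = 0.0164). Of the CREB family partners, Atf1 rose by 0.25 ± 0.085 on the log2 scale and the coactivator Crebbp by 0.24 ± 0.10, and Crebbp passed in only 8 of the 15 other settings.

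The 3 genes that fell were Rcan1, an inhibitor of the phosphatase calcineurin, Arrb2, an arrestin that ends receptor signalling, and Adcy9, an adenylyl cyclase. Rcan1 gave 1479.63, 1811, 1699 and 1919.65 in Th3 samples and 1942, 2913, 3014 and 3082 in controls. All Th3 signals of Rcan1 were below all control signals, and its log2 ratio was -0.65 ± 0.18 (n = 4, adjusted p = 0.00271), called in all 15 other settings. With the mean of its probes it was -0.38. Arrb2 had a log2 ratio of -0.30 ± 0.23 (adjusted p = 0.0223) and Adcy9 -0.24 ± 0.18 (adjusted p = 0.0383), the latter passing in 8 of 15. Among the genes that did not pass, and named after their values were seen, the stimulatory G protein subunit Gnas had a log2 ratio of -0.23 ± 0.13 (adjusted p = 0.0536) with every Th3 signal below every control signal, the collecting duct cyclase Adcy6 -0.13 ± 0.12, the kinase subunits Prkaca -0.13 ± 0.084 and Prkacb -0.061 ± 0.12, and the transcription factor Creb1 -0.13 ± 0.26. With the array pairs as a random block in place of the dye term, here and below, the list had 2 genes higher and 1 lower. Without array 2 it had 3 higher and 2 lower, and with separate channels 6 and 6.

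**Figure D3:**
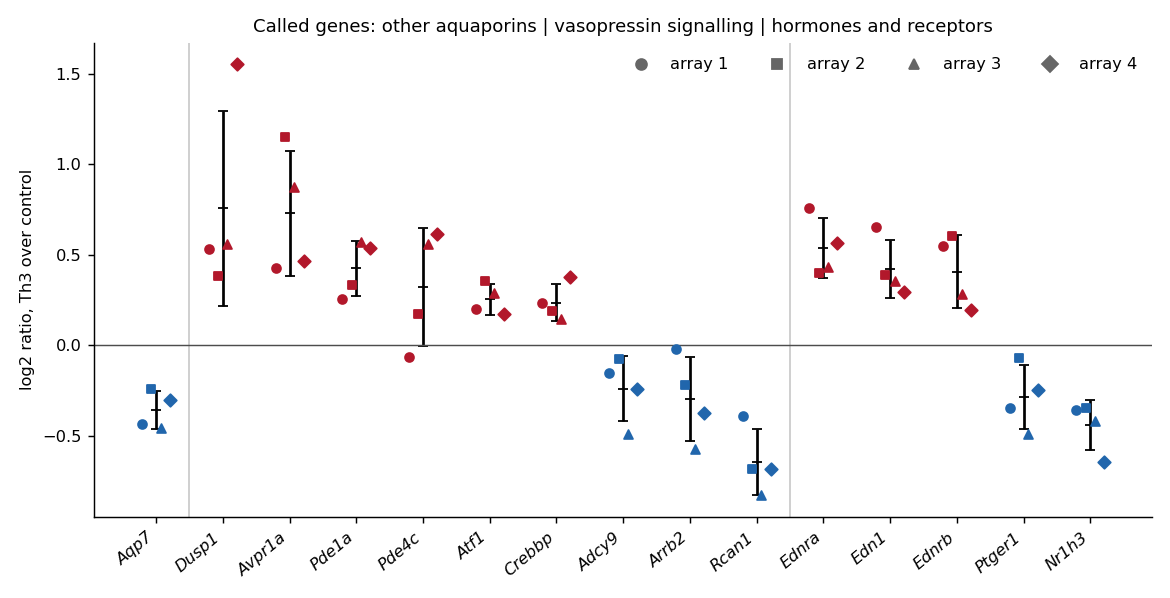
Log2 ratio of Th3 over control (y axis) on each array (marker shapes), with mean and SD over 4 arrays, of the called genes among other aquaporins (left), vasopressin signalling (middle) and hormones and receptors of water transport (right); red genes were called higher and blue ones lower. Avpr1a lies above 0 and Rcan1 below 0 on every array, and Dusp1 has 1 array, at 1.55, far above the others.

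Of 36 tested genes that move Aqp2 between vesicles and membrane, 6 rose, 2 fell and 28 did not pass. That is 16.7% higher and 5.56% lower, beside 10.9% and 10.6% of all genes, with a median log2 ratio of 0.015. Akap7, an anchor of protein kinase A on vesicles, rose by 0.42 ± 0.11 on the log2 scale (adjusted p = 0.00655), with Th3 signals of 511, 567, 566 and 526 and control signals of 427, 409, 414 and 377. Its groups did not overlap, and it passed in all 15 other settings. Hspa8, the heat shock cognate protein that uncoats clathrin vesicles, fell by 0.63 ± 0.36 on the log2 scale (adjusted p = 0.0118), by little on array 1 and by more on the others. Nedd4, a ubiquitin ligase, had a log2 ratio of 0.26 ± 0.15 and Akap1, an anchor protein of mitochondria, -0.25 ± 0.17, and these passed in 7 and 5 of the 15 other settings. The count of increases fell to 3 without array 2 and to 2 without array 3, the count of decreases was 1 without array 1 and without array 4, and with the array pairs as a random block 1 gene was higher and 0 lower.

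Hormones and receptors known to tune water transport by the collecting duct made up 21 tested genes, with 3 called higher, 2 lower and 16 neither (14.3% and 9.52%, median 0.017). The 3 that rose were the endothelin genes on this list: endothelin-1, Edn1, which opposes vasopressin in the collecting duct, and the receptors Ednra and Ednrb. Edn1 gave 251, 215, 209.661 and 218 in Th3 samples and 159, 164, 164 and 178 in controls, without overlap, a log2 ratio of 0.42 ± 0.16 (adjusted p = 0.00743). Ednra, the receptor of smooth muscle, had a log2 ratio of 0.54 ± 0.16 (adjusted p = 0.00594), with Th3 signals of 1051, 879, 830.146 and 990.345 and control signals of 622, 667, 616 and 670.015. Ednrb, named here after its value was seen, had a log2 ratio of 0.41 ± 0.20 (adjusted p = 0.00522). Nr1h3, the oxysterol receptor LXR alpha, fell by 0.44 ± 0.14 on the log2 scale (adjusted p = 0.00576), and Ptger1, a prostaglandin E2 receptor, by 0.29 ± 0.18 (adjusted p = 0.0347). Without array 4 the list had 5 genes higher, and without array 1 or array 3 it had 1 lower.

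Genes that cells switch on against high salt in the medulla went in both directions: 3 of 15 rose, 6 fell and 6 did not pass (20% and 40%, beside 10.9% and 10.6% of all genes, median -0.13). Slc6a6, the taurine transporter, rose by 0.62 ± 0.22 on the log2 scale (adjusted p = 0.00598), and its Th3 signals of 35006, 44078.5, 42224.5 and 48176 lay above its control signals of 24720, 24065, 32203 and 29334.5. Sgk1, a kinase induced by aldosterone and by salt, had a log2 ratio of 0.67 ± 0.47 (adjusted p = 0.0265) and overlapping groups. Against this, Slc6a12, the betaine transporter, had a log2 ratio of -0.31 ± 0.27 (adjusted p = 0.0178) and Cryab, a small heat shock protein of the medulla, -0.56 ± 0.36 (adjusted p = 0.00486). Without array 4, 3 genes of the list were lower, and with the array pairs as a random block 1 was higher and 0 lower. Of 20 transcription factors of Aqp2 and of principal cells, 0 rose (1 at an unadjusted p below 0.05 in limma) and 1 fell, Nfatc1, a calcineurin-dependent factor (log2 -0.30 ± 0.14, adjusted p = 0.0279). The principal-cell factors Gata3 (log2 0.0027 ± 0.12) and Elf5 (log2 -0.017 ± 0.36) did not pass. Without array 3, 2 of the 20 were higher and 0 lower.

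Among the genes of its own segment, Aqp3 had one of the largest increases. Of 30 other genes of principal cells 6 were called higher, 2 lower and 22 neither (20% and 6.67%, median 0.011), and 1 of the 30, Lcn2, had a ratio above that of Aqp3. With the array pairs as a random block 1 of the 30 was higher and 1 lower. Lcn2, an iron-siderophore carrier made by injured tubules, had a log2 ratio of 0.74 ± 0.51 (adjusted p = 0.0293), with 1.45 on array 1. Without array 1 it was 0.45, below Aqp3, and it passed in 11 of the 15 other settings. Cdh16, a cadherin of tubules, fell by 0.35 ± 0.04 on the log2 scale (adjusted p = 0.00704), and Fxyd2, a subunit of the sodium pump, by 0.25 ± 0.08 (adjusted p = 0.0232). The defining genes Scnn1b (log2 0.027 ± 0.11), Scnn1g (log2 0.12 ± 0.26), Hsd11b2 (log2 -0.032 ± 0.22) and Fxyd4 (log2 -0.095 ± 0.27) did not pass, and Scnn1a, an epithelial sodium channel subunit, rose by 0.46 ± 0.35 on the log2 scale (adjusted p = 0.0155). The summed signal of the 30 genes ran from 389953 to 498172 in Th3 samples and from 430472 to 505442 in controls, so the groups overlapped. Without array 3 the list had 3 higher and 1 lower, and without array 4 it had 3 higher and 4 lower.

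Of 21 other genes of intercalated cells 3 were called higher, 3 lower and 15 neither (14.3% each way, median -0.043), and 1 of the 21, Avpr1a, had a ratio above that of Aqp6. Atp6v1g3, a proton pump subunit of these cells, had a log2 ratio of 0.27 ± 0.11 (adjusted p = 0.0264). Car15, a membrane carbonic anhydrase, fell by 0.90 ± 0.44 on the log2 scale (adjusted p = 0.00378), and Rhbg, an ammonium transporter, by 0.28 ± 0.07 (adjusted p = 0.0143). The pump subunit Atp6v1b1 (log2 -0.043 ± 0.19) and the chloride exchanger Slc26a4 (log2 -0.18 ± 0.19) did not pass. The summed signal ran from 75788 to 88725 in Th3 samples and from 81963 to 97963 in controls, again overlapping. With the array pairs as a random block 1 gene was higher and 1 lower. The median turned to 0.0062 with median centring, 1 gene was lower without array 1 and 1 was higher without array 3.

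In the proximal tubule, the segment of Aqp1 and Aqp11, more of the other genes fell than rose. Of 25 other early proximal tubule genes 2 rose and 10 fell (8% and 40%, median -0.086, turned to 0.011 with median centring), and of 20 genes of the straight segment 3 rose and 10 fell (15% and 50%, median -0.30). With the array pairs as a random block the early list had 1 higher and 5 lower and the straight list 1 and 2, and without array 2 the straight list had 1 higher. Gatm, an enzyme of creatine synthesis, fell by 0.83 ± 0.13 on the log2 scale (adjusted p = 0.00102). The organic anion transporter Slc22a6 fell by 0.80 ± 0.11 (adjusted p = 0.00105), while Aqp1 of the same tubule had a log2 ratio of 0.011 ± 0.18. The 2 early genes that rose were Slc6a19 (log2 0.76 ± 0.34, adjusted p = 0.0101) and Slc4a4 (log2 0.45 ± 0.26, adjusted p = 0.0147). In the straight segment, Kap, an androgen-regulated protein, fell by 3.34 ± 0.32 on the log2 scale (adjusted p = 0.000167). Among the increases there was Slc13a1, with Th3 signals of 8163, 10125.5, 9934 and 7463 and control signals of 4443, 6800, 7169 and 7283. Of 16 thin limb genes, where Aqp1 and Slc14a2 also belong, 3 rose and 4 fell (18.8% and 25%), among them the hyaluronan receptor Cd44 (log2 -0.48 ± 0.42). These counts became 1 and 0 with the array pairs as a random block and 2 and 1 with no dye term. Of 17 genes of inner medulla and papilla 0 rose (3 at an unadjusted p below 0.05 in limma) and 2 fell, with Akr1b8, an aldose reductase relative, at a log2 ratio of -0.40 ± 0.47 (adjusted p = 0.00859). With the array pairs as a random block or no dye term 0 fell. Leaving out any single array took that count of decreases to 1, with 1 increase without array 1 and without array 4. In the distal convoluted and connecting tubule 1 of 17 rose and 7 fell (5.88% and 41.2%), and in the thick ascending limb 1 of 18 rose and 2 fell (5.56% and 11.1%). In the thick ascending limb 1 gene fell without each array in turn and 2 rose without array 3, and in the distal convoluted list 0 rose without array 2 or array 3.

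**Figure D4:**
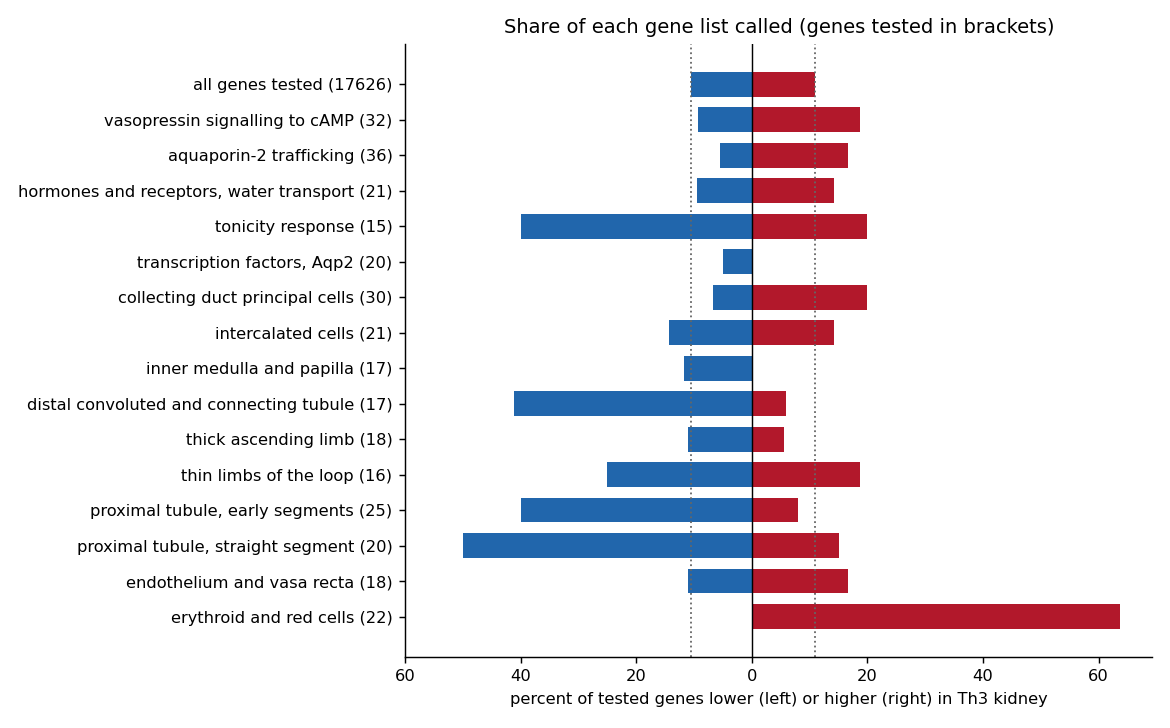
Percent of the tested genes of each list that were called higher (red, right) or lower (blue, left) in Th3 kidney, with the number tested in brackets and dotted lines at the share of all genes, 10.9% and 10.6%. The lists of principal cells, vasopressin signalling and trafficking lie above the dotted line on the higher side and below it on the lower side, and both proximal tubule lists, the distal convoluted list and the tonicity list, at 40% or more, lie far past it on the lower side.

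Genes of other cell types were read beside these results, against the 10.9% higher and 10.6% lower of all genes. Of 22 tested red-cell genes 14 rose (63.6%) and 0 fell (1 at an unadjusted p below 0.05 in limma, median 0.40). Their summed signal ran from 24074 to 25157.5 in Th3 samples and from 21218 to 23718 in controls. Tspan33 alone made up most of this sum, with 13761 to 15968 in Th3 samples and 13686 to 14628 in controls, which overlapped. Gata1 and Xk were among the genes of this list not tested for want of signal. Of the red-cell genes 8 were higher without array 3 and 5 with the array pairs as a random block. The filter also lets in genes above background in the samples of only 1 group. With only probes above background in both channels, 14 red-cell genes were tested, of which 6 rose and 0 fell. Slc4a1, which both red cells and intercalated cells make, was not called (log2 0.35 ± 0.27, adjusted p = 0.0546). Of 7 tested genes of pancreas, liver and salivary gland, 4 rose, liver genes all. This count was 1 without array 3, 2 without array 4 and 1 with the array pairs as a random block. With only probes above background in both channels it was 3 of 5. The salivary gland genes Bpifa2, Prol1 and Smgc were too dim to test, while Aqp5 and Aqp8 are known from such glands. Of 18 genes of endothelium and vasa recta 3 rose and 2 fell (16.7% and 11.1%). The increases included Vwf, with signals from 936 to 1723 in Th3 samples and from 473 to 687 in controls. They also included Flt1, with signals from 8440 to 12967 in Th3 samples and from 5405 to 7695 in controls. The decreases were those of Aplnr and of Aqp7, which was already given above among the other aquaporins. In fat-cell genes 2 of 12 rose (4 without array 1 and 5 without array 4) and 3 fell, with a median log2 ratio of 0.15. Among those that fell was Ucp1 of brown fat (log2 -3.40 ± 0.93). Among those that rose was Retn, with Th3 signals of 977, 941, 879 and 960 and control signals of 536, 510, 550 and 876. The summed signal of the list ran from 93432 to 122337 in Th3 samples and from 40668 to 156664 in controls. The part of these cell types in the results for the aquaporins was not tested. The defining genes of the kidney's own segments (Lrp2, Slc34a1, Umod, Slc12a1, Slc12a3, Scnn1b and Atp6v1b1 among them) all passed the filter on dim probes.

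**Figure D5:**
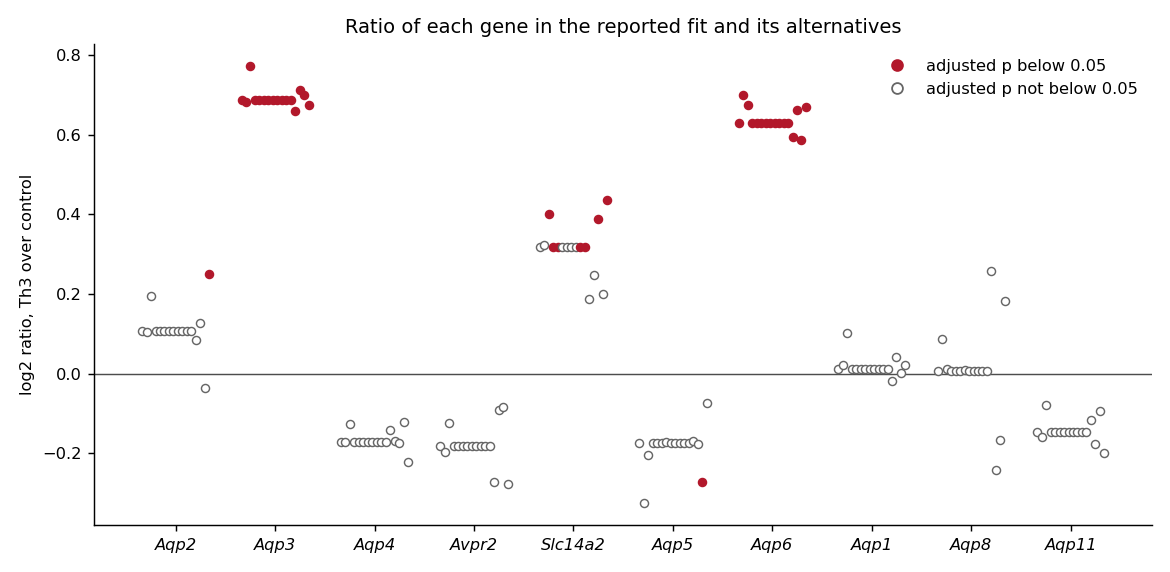
Log2 ratio of Th3 over control (y axis) of the 10 genes in the fit reported here and in 15 other settings (points, in the same order for each gene), filled where the adjusted p was below 0.05. All points of Aqp3 (0.66 to 0.77) and Aqp6 (0.59 to 0.70) are filled, those of Slc14a2 are mixed, and Aqp2 and Aqp5 have 1 filled point each.

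As a check of the labels, the deleted adult beta-globin, named Hbb-bt in current annotation, had a signal at 8.48% of control (log2 -3.56 ± 0.48, n = 4, adjusted p = 2.68e-06). In each channel, between 61.7% and 72.1% of probes stood well above background, and the ratios of all genes correlated at 0.67 between arrays 1 and 2, 0.71 between arrays 3 and 4 and 0.43 to 0.53 across these pairs. Nothing in the labels states that the samples of a group came from separate mice, so their spread may be technical, and precision is limited by having 4 arrays. Since dye orientation and kidneys change together, the p-values rest on how far arrays of 1 orientation differ from each other and leave out how far the orientations differ.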

How the data were processed

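The scanner files hold spot and local background intensities and processed intensities, per the file headers from Agilent Feature Extraction 9.5.3.1. Per the file headers they also hold a log10 ratio of Cy5 over Cy3, used only to check direction. A combined file that the authors deposited gives, for each array, the Th3 to control ratio on a log2 scale. That deposited file adds a signed fold (a score, its rule not given in the sources used) and an adjusted p-value of an unnamed test.

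In limma 3.58.1 (R 4.3.3, tables read with data.table, version 1.17.8), mean intensities were corrected by normexp (offset 50) and loess (span 0.3, 4 iterations). Outlier and control spots had weight 0 there, and averaging of spots gave 41174 probes. Probes were kept if well above background on all 4 arrays in the Th3 or in the control channel, with values on at least 3 arrays, which left 26430. The brightest probe stood for each of 17626 genes. Names came from accessions, symbols or synonyms in RefSeq (GRCm38.p6). lmFit and eBayes fitted a Th3 and a dye term (2 residual and 4.53 prior degrees of freedom), with Benjamini-Hochberg adjustment over all genes. Signals were loess- and Aquantile-scaled. A ± is an SD over arrays. The steps were tested on simulated data. Slide and scan date were the same for all arrays and give no batch to test. Alternatives, with their effect in the closing section, changed the background correction, normalization, filter, dye term, blocking, weights, variance model and choice of probe.

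The members, lists and fits were chosen with earlier results of these data known. Named from each list were up to 2 increases and 2 decreases, the largest among called genes with 1 sign on all arrays, every called gene of the vasopressin list, and the 5 genes most like Aqp3. Some named results are not reported here.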

Additional observations from a re-analysis of the deposited data

Results flagged for a closer look

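Among 74 genes and probes checked, 7 had 1 array far from the other 3, measured as its gap to the nearest of them over the whole range of the 4. Chance alone flags about 1 in 20 such groups. The log2 ratio of Aqp5 was -0.51 on array 4, against -0.11 to -0.034 on the others. That of Dusp1 was 1.55 on array 4, against 0.38 to 0.56, and that of Slc4a4, a bicarbonate cotransporter of the proximal tubule, was 0.84 on array 4, against 0.31 to 0.34. On array 1, Akap7 had 0.26, against 0.45 to 0.48 on the others, Hspa8 had -0.09 (-0.091), against -0.84 to -0.79, and Cdh16 had -0.29, against -0.38 to -0.37. Ucp1 had -2.01 on array 2, against -4.02 to -3.78. No array stood apart for Aqp3 or Aqp6.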

How the results depend on the processing

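Over 15 alternatives Aqp3 and Aqp6 passed every time. Each left out 1 array or changed 1 choice, apart from those that changed choices together. An intensity trend was set with robust variances, and the random block took the place of the dye term. The scanner's processed signals replaced both the background correction and loess. Leaving out each array in turn, 2 to 4 of the 10 genes were higher (4, with Aqp2 and Slc14a2, without array 4) and 0 to 1 lower (1, Aqp5, without array 3). In these same fits the mean log2 ratio ran from -0.019 (without array 1) to 0.041 for Aqp1, from -0.037 (without array 3) to 0.25 for Aqp2, and from -0.24 (without array 2, and -0.17 without array 3) to 0.26 for Aqp8. Over all genes, 2984 were higher with separate channels. Without the dye term 1102 were higher and 888 lower, and with each pair of arrays as a random block, also without the dye term, 646 and 554. With median centring 1144 were lower. The causes were not tested. List medians near 0 changed sign in some settings. The random block, fitted without the dye term, lowered most list counts, for red-cell genes from 14 to 5. With no dye term and no block the red-cell count was 9. Each ratio already pairs the Th3 and the control sample of 1 array, and within this 1 group of ratios no block by replicate number could be fitted. The offset in the background correction pulls ratios of dim probes, such as that of Aqp5, toward 0.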
